A study of Arabidopsis thaliana with 9 samples.

Results

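The CHR genes of Arabidopsis encode ATPases of the Snf2 family, the motor proteins of chromatin remodelling. Probe sets were taken where the probe annotation gave 1 gene and its symbol was CHR followed by digits only, in capitals or in small letters (chr31). This gave 8 genes with 9 probe sets among the 22746 probe sets tested, where the annotation gave 1 gene to probe sets of 13356 genes: CHR17 (AT5G18620), CHR18 (AT1G48310), CHR23 (AT5G19310), CHR24 (AT5G63950), CHR31 (AT1G05490), CHR34 (AT2G21450), CHR40 (AT3G24340) and CHR42 (AT5G20420). CHR31 had 2 probe sets, and the one with the higher mean over the 9 arrays represents the gene. All 8 genes matched the RefSeq gene table, which holds 29 protein-coding genes with a CHR number as symbol or synonym. Of these 29, 10 had a probe set listed in the probe annotation, the other two being ATRX and ETL1, described with the related genes. CHR11, BRM, SYD, PKL, CHR1 (DDM1) and the rest were not analysed here.

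Snf2-type remodellers use ATP to slide, space, evict or restructure nucleosomes, and some of them act on DNA structures during repair. The 8 genes fall into several classes. CHR17 belongs to the ISWI class, which spaces nucleosomes in gene bodies together with CHR11. CHR23 is a small SWI/SNF-class ATPase also known as MINUSCULE2, which acts with CHR12 in growth and meristem maintenance. CHR18 is related to human SMARCAL1, which reanneals DNA at stalled replication forks, and CHR24 carries the synonyms ERCC6 and RAD26 in the gene table, names of factors of transcription-coupled DNA repair in human and yeast. CHR31, CHR40 and CHR42 are CLASSY proteins (CLSY3, CLSY4 and CLSY2), which guide RNA polymerase IV to its targets in RNA-directed DNA methylation. CHR34 belongs to the same clade as the CLASSY proteins and DRD1. In pollen, the vegetative cell has strongly decondensed chromatin and the sperm cells have compact chromatin, so remodellers have been of long-standing interest there.

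All plants were LAT52-HF-RPL18 transgenic, with a tagged ribosomal protein L18 under a pollen promoter, and were grown at 22 °C under a cycle of 18 h light and 6 h dark. Polysomes were pulled down by the FLAG tag, and their mRNA was amplified and hybridised, so each signal is meant to report ribosome-bound mRNA. The in vivo group came from self-pollinated flowers of stage 14, the in vitro group from pollen tubes grown in culture and the bud group from floral buds of stage 11 to 12. Each group had 3 biological replicates on 1 array each. For bud, the text of the series speaks of unpollinated styles instead. No group lacked the transgene, and the groups share no untagged control. Signal from tagged ribosomes and from RNA carried over in the pull-down therefore cannot be told apart.

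The values are MAS5 signals, which are intensities scaled so that every array has a trimmed mean of 500, and a signal is a level relative to its own array. Signals of different probe sets are not comparable as amounts, so levels were compared between groups for each gene. The median signal of an array averaged 183 ± 7.70 in vivo, 83.2 ± 24.5 in vitro and 187 ± 10.6 in bud (SD, n = 3 each). The in vitro medians were lower at the same trimmed mean, and log2 values correlated at 0.859 to 0.933 among them, against 0.947 to 0.970 among in vivo arrays and 0.940 to 0.965 among bud arrays. In vitro replicate 3 had the brightest hybridisation controls, with a median of 78112, and in vivo replicate 1 the dimmest, with 1719.

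The flower samples also gave high signals for genes of green tissue. All 5 measured photosynthesis markers were lower in vitro than in bud, and their summed signal was 40165 to 59844 in vivo, 379 to 612 in vitro and 43939 to 70074 in bud. All 8 measured pollen tube markers were higher in vitro than in bud, and 2 were higher in vivo than in bud, with sums of 12889 to 25943 in vivo, 205468 to 344358 in vitro and 2516 to 5383 in bud. Of 4 markers of the tapetum, which nourishes developing pollen, 4 were below bud in vitro and 3 in vivo; the sums were 511 to 1037 in vivo, 83.04 to 721 in vitro and 10977 to 19445 in bud. Of 7 pistil and ovule markers, 5 were lower in vitro than in bud, with sums of 2694 to 3259 in vivo, 307 to 720 in vitro and 2434 to 3341 in bud. FER was the largest part of the flower sums, at 1844 in vivo and 1811 in bud on average. NGA3 and NGA4 did not pass between in vitro and bud, and NGA4 averaged 45.0 in vivo, 129 in vitro and 72.7 in bud. Of 4 markers of dividing cells, 3 were higher and 1 lower in vitro than in bud, with sums of 2770 to 4033 in vivo, 26840 to 38336 in vitro and 2648 to 3769 in bud. AUR1 and AUR2 were the largest part of the in vitro sums, at 15303 and 15032 on average. TOPII was the lower marker, with averages of 137 in vitro and 459 in bud. Of 2 sperm markers, neither passed the test between in vitro and bud and TET11 was lower in vivo, with sums of 29.7 to 82.6 in vivo, 603 to 1239 in vitro and 534 to 774 in bud. Over all probe sets, 20.4% were called higher and 40.5% lower in vitro than in bud, and 4.02% were called between in vivo and bud. No marker was listed at 0 on any array. In such pull-down samples a lower share of cells of a type, less RNA per cell and less carried-over RNA cannot be told apart. The part of these marker differences in the results for CHR genes was not tested.

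CHR17, CHR23, CHR18 and CHR40 were higher in cultured pollen tubes than in both flower samples, by 13.8-fold, 4.64-fold, 4.45-fold and 2.24-fold over bud. These values are linear, while a fold given below as a plain number is a log2 fold. CHR31 was lower in cultured tubes than in bud on its brighter probe set, by a size that depends on the offset because its in vitro signals were below 16. CHR24, CHR34 and CHR42 did not pass the test in any of the 3 comparisons. None of the 8 genes passed between pollinated flowers and buds, where 4.02% of all probe sets were called. Between cultured tubes and buds 60.9% of all probe sets were called, 20.4% higher and 40.5% lower. Between pollinated flowers and cultured tubes the share was 59.3%. The plot of signals by group shows every array.

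**Figure D1:**
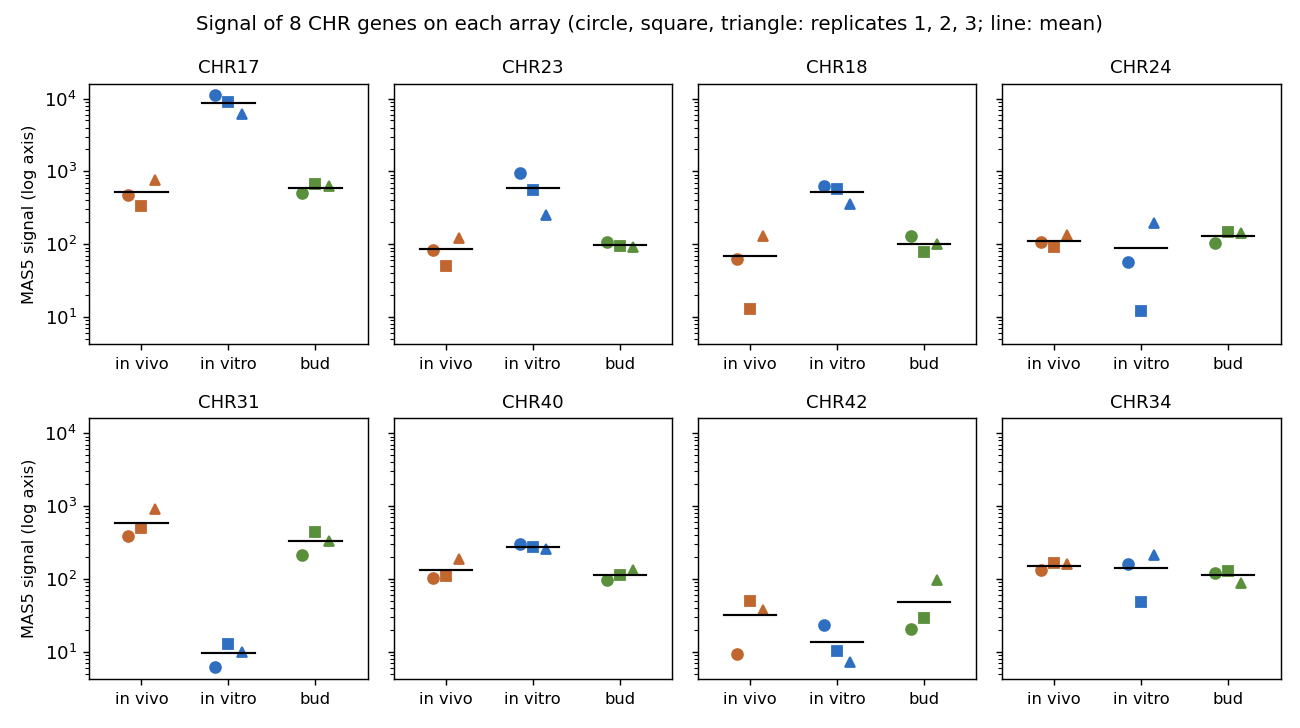
MAS5 signal on a log axis for each of the 8 CHR genes in the in vivo, in vitro and bud groups; circles, squares and triangles are replicates 1, 2 and 3 and the line is the mean of 3 arrays. CHR17, CHR18, CHR23 and CHR40 stand highest in vitro with no overlap, CHR31 lies at 6.17 to 12.9 in vitro, and the other 3 genes overlap between in vitro and bud.

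CHR17, the ISWI-class ATPase, had signals of 478, 332 and 764 in vivo, 11009, 8901 and 6102 in vitro, and 497, 671 and 630 in bud. All in vitro arrays lay far above the other 6, whose ranges overlapped. Its log2 fold was 3.79 ± 0.38 (SE) for in vitro against bud (limma, adjusted p = 5.51e-06), with a 95% interval of 2.95 to 4.63, on the log2(signal + 16) scale used for all folds here. For in vivo against in vitro it was -4.04 ± 0.38 (SE, limma, adjusted p = 4e-06). Within each array, CHR17 stood at the 63.9th to 80.8th percentile of all probe sets in vivo, at the 96.3rd to 97.5th in vitro and at the 73.2nd to 77.7th in bud. This rank does not depend on how arrays are scaled to one another by a constant. The fold exceeded the median over all probe sets, -0.42, by 4.21 log2 units, and 95.8% of probe sets had a smaller log2 fold. For the folds of CHR23, CHR18 and CHR40 over bud this share was 90.9%, 90.5% and 79.7%.

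CHR23, the MINUSCULE2 ATPase, had signals of 84.5, 49.8 and 120.02 in vivo, 949, 560 and 249 in vitro, and 106, 96.0 and 91.4 in bud. The in vitro arrays spread 3.81-fold among themselves, yet the lowest of them was above every in vivo and bud array. The bud arrays were close to each other, with 1.16-fold between the highest and the lowest. The log2 fold was 2.22 ± 0.47 (SE, limma, adjusted p = 0.00146) for in vitro against bud and -2.45 ± 0.47 (SE, limma, adjusted p = 0.000741) for in vivo against in vitro. In array rank CHR23 was at the 29.4th to 41.4th percentile in vivo, the 72.8th to 88.2nd in vitro and the 37.5th to 40.2nd in bud. With equal array medians the log2 fold over bud was 3.35, against 2.22 with the deposited scaling.

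CHR18, the SMARCAL1-related gene, had signals of 62.8, 12.9 and 131 in vivo, 623, 576 and 353 in vitro, and 128, 79.3 and 99.2 in bud. Replicate 2 in vivo was the dimmest of the 9 arrays, and the in vivo arrays spread 10.2-fold. The in vitro arrays did not overlap with either flower group. The log2 fold was 2.16 ± 0.53 (SE, limma, adjusted p = 0.00388) for in vitro against bud and -2.90 ± 0.53 (SE, limma, adjusted p = 0.000538) for in vivo against in vitro. Its array percentile was 14.4 to 43.0 in vivo, 79.5 to 85.5 in vitro and 35.1 to 43.5 in bud. With equal array medians its log2 fold over bud was 3.29.

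CHR24, the gene with the repair synonyms ERCC6 and RAD26, had signals of 109, 91.6 and 135 in vivo, 57.9, 12.02 and 198 in vitro, and 103, 147 and 144 in bud. The in vitro arrays spanned both sides of the other groups. Their spread was 16.5-fold, the widest of any group among the 8 representative probe sets, against 1.47-fold in vivo and 1.43-fold in bud. The log2 fold of -0.93 for in vitro against bud had a 95% interval of -2.23 to 0.36 (limma, adjusted p = 0.193). This value turned on single in vitro arrays. Without in vitro replicate 3, the brightest for CHR24, the fold was -1.68 (limma, adjusted p = 0.00466), and without replicate 2, the dimmest, it was -0.21 (limma, adjusted p = 0.715). For in vivo against in vitro, the same omissions gave 1.48 (limma, adjusted p = 0.01) and 0.0080 (limma, adjusted p = 0.989). With all arrays in vivo against in vitro gave 0.73 with a 95% interval of -0.57 to 2.03 (limma, adjusted p = 0.31).

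CHR31, or CLSY3, acts in anthers in the tapetum and in ovules, where it directs small RNA production at a limited set of loci. Its brighter probe set had signals of 386, 498 and 903 in vivo, 6.17, 12.9 and 9.80 in vitro, and 212, 443 and 330 in bud. Every in vitro array was far below every flower array, and the in vivo and bud ranges overlapped. The log2 fold was -3.70 ± 0.40 (SE, limma, adjusted p = 8.94e-06) for in vitro against bud and 4.50 ± 0.40 (SE, limma, adjusted p = 2.43e-06) for in vivo against in vitro. In array rank CHR31 stood at the 65.8th to 83.5th percentile in vivo, the 8.83rd to 20.0th in vitro and the 54.3rd to 68.6th in bud. In vivo it averaged 596 ± 272, against 329 ± 116 in bud (SD, n = 3 each), a log2 fold of 0.80 with a 95% interval of -0.08 to 1.67 (limma, adjusted p = 0.514). This fold was 0.46 without in vivo replicate 3 and 0.53 without bud replicate 1. The tapetum marker sum was lower than in every bud array on every in vivo array, with 511 to 1037 in vivo against 10977 to 19445 in bud. Of its 4 markers 3 were lower in vivo than in bud. The other, EMS1, averaged 665 in vivo and 718 in bud and did not pass (limma, adjusted p = 0.994). Any part of the tapetum in the CHR31 signal was not tested.

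The 2 probe sets of CHR31 disagreed. The dimmer one had signals of 3.19, 21.1 and 27.0 in vivo, 27.1, 30.2 and 77.04 in vitro, and 1.21, 5.28 and 22.5 in bud, so all in vitro arrays were above the others. Its log2 fold was 1.24 ± 0.46 (SE, limma, adjusted p = 0.0355) for in vitro against bud, opposite in sign to the brighter probe set. These signals lay at the 5.33rd to 17.9th array percentile in vivo, the 29.8th to 43.3rd in vitro and the 0.655th to 17.8th in bud. Averaged over both probe sets, CHR31 was still lower in vitro than in bud, with a log2 fold of -1.23 (limma, adjusted p = 0.0185), and still higher in vivo than in vitro, with 1.82 (limma, adjusted p = 0.00198). Which probe set follows the CHR31 transcript was not tested. The fold of the brighter probe set also depended on the offset, since its in vitro signals were below the offset of 16. For in vitro against bud it was -4.94 with an offset of 1 and -2.37 with an offset of 64. For in vivo against in vitro it was 5.77 and 3.09. Only the direction of this probe set held over the offsets, and the dimmer probe set had the opposite direction.

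CHR40, or CLSY4, had signals of 104, 110 and 187 in vivo, 301, 273 and 255 in vitro, and 97.1, 114 and 134 in bud. The in vitro arrays were tight, with 1.18-fold between the highest and the lowest, and all lay above the flower arrays. The log2 fold was 1.17 ± 0.33 (SE, limma, adjusted p = 0.0085) for in vitro against bud, with a 95% interval of 0.45 to 1.88. For in vivo against in vitro it was -1.01 ± 0.33 (SE, limma, adjusted p = 0.0191); without in vivo replicate 1 or 2 this comparison no longer passed (limma, adjusted p = 0.0799 and 0.0717). In array rank CHR40 was at the 39.4th to 50.0th percentile in vivo, the 73.3rd to 79.5th in vitro and the 38.5th to 43.5th in bud. With quantile normalization its log2 fold over bud was 2.29, and with equal array medians also 2.29. In vivo against in vitro these scalings gave -2.09 and -2.11. Within the CLASSY group, CHR40 was thus higher in cultured tubes than in both flower samples, while CHR31 on its brighter probe set was lower.

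CHR42, or CLSY2, was dim throughout, with signals of 9.39, 49.8 and 37.1 in vivo, 23.4, 10.2 and 7.18 in vitro, and 20.5, 29.02 and 97.7 in bud. All 3 groups overlapped. Its mean over the 9 arrays was 31.6. The log2 fold for in vitro against bud was -0.99 with a 95% interval of -2.09 to 0.11 (limma, adjusted p = 0.108). It was -0.49 without bud replicate 3, -0.65 with quantile normalization, -0.29 with equal array medians, -1.61 with an offset of 1 and -0.49 with an offset of 64. For in vivo against in vitro it was 0.63, from -0.47 to 1.73 (limma, adjusted p = 0.3).

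CHR34, the relative of DRD1, had signals of 131, 164 and 162 in vivo, 159, 48.2 and 216 in vitro, and 121, 127 and 88.8 in bud. The in vitro arrays spread 4.49-fold and overlapped with both other groups. The log2 fold was 0.12 for in vitro against bud, with a 95% interval of -0.87 to 1.103 (limma, adjusted p = 0.837). With equal array medians it was 1.18 and passed (limma, adjusted p = 0.034), while with quantile normalization it was 1.203 and did not (limma, adjusted p = 0.0549). In array rank CHR34 was at the 43.5th to 48.9th percentile in vivo, the 40.3rd to 71.3rd in vitro and the 37.1st to 42.4th in bud.

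**Figure D2:**
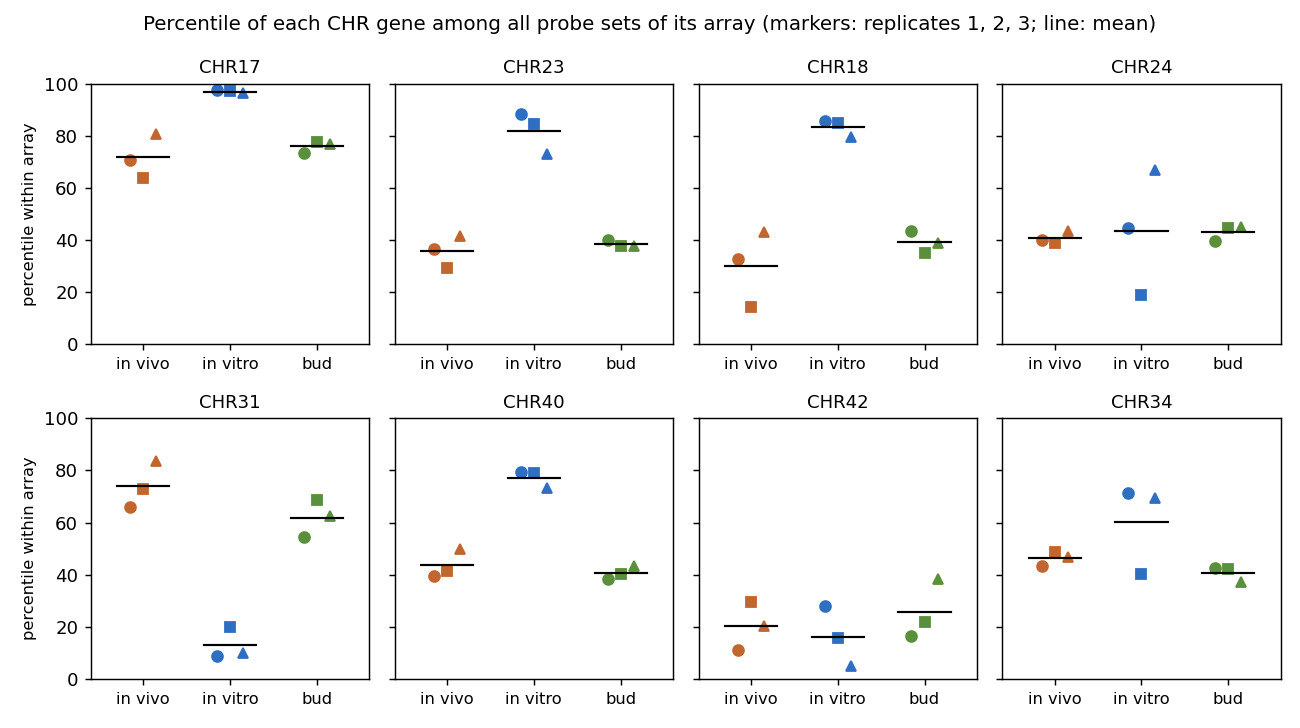
Percentile of each CHR gene among all 22746 probe sets of the same array (y axis, 0 to 100) in the in vivo, in vitro and bud groups; markers are replicates 1, 2 and 3 and the line is their mean. CHR17, CHR18, CHR23 and CHR40 rank higher on every in vitro array than on any other, CHR31 ranks lower, and CHR24, CHR34 and CHR42 overlap between in vitro and bud.

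Pollinated flowers were set against buds to see which CHR genes differ in pulled-down mRNA before and after pollination. Floral stage and pollination differ together and cannot be told apart. None of the 8 CHR genes passed, and 0 had an unadjusted p under 0.05; over all probe sets limma called 4.02%, and 11.7% had an unadjusted p under 0.05. The median log2 fold of the 8 genes was -0.22, against -0.02 for all probe sets, but it was 0.032 without in vivo replicate 2 and 0.0017 without bud replicate 3, and leaving out in vivo replicate 1 or 3 gave -0.073 and -0.41. The 95% intervals still allow sizeable differences: for CHR18, with a fold of -0.75, the interval was -1.90 to 0.41, and for CHR17 it was -1.10 to 0.59. Without in vivo replicate 2 the fold of CHR18 was -0.11, and without in vivo replicate 3 it was -1.29. Intervals for CHR23, CHR24, CHR40 and CHR42 were -1.26 to 0.79, -1.50 to 1.09, -0.55 to 0.87 and -1.46 to 0.74. CHR34 alone had all in vivo arrays above all bud arrays, as had 11.2% of all probe sets, with a log2 fold of 0.40 from -0.58 to 1.39 (limma, adjusted p = 0.939).

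Cultured tubes were set against buds to see which CHR genes differ in tubes grown without flower tissue; culture and tissue differ together and cannot be told apart. Of the 8 CHR genes 4 were called higher and 1 lower, while limma called 60.9% of all probe sets, 20.4% higher and 40.5% lower. The count of 5 called among 8 is close to that background. The arrays of the 2 groups did not overlap for the same 5 genes, and for 63.8% of all probe sets. The median log2 fold was 0.64 over the 8 genes and -0.42 over all probe sets. With quantile normalization these medians were 1.74 and 0.22, and with equal array medians 1.73 and 0.44. The split over all probe sets depended on scaling, with 4645 higher and 9214 lower as given, 6806 and 6216 with quantile normalization, and 7877 and 6115 with equal array medians. The directions of the 5 called CHR genes were the same under both scalings.

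**Figure D3:**
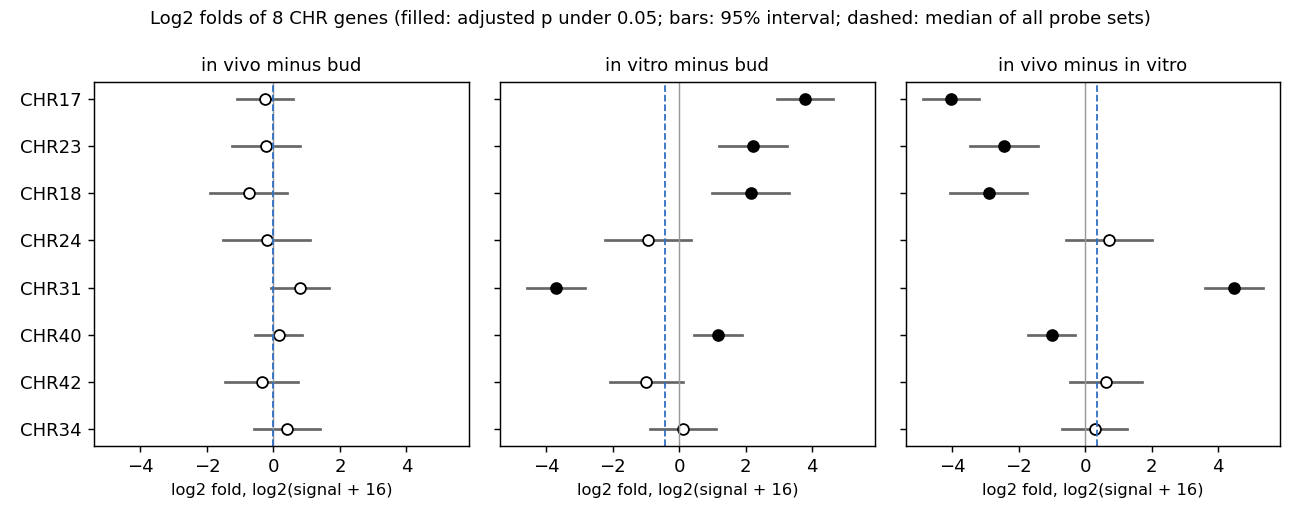
Log2 fold of each of the 8 CHR genes in the 3 comparisons (x axis, log2(signal + 16) scale); bars are 95% intervals, filled points have an adjusted p under 0.05 and the dashed line is the median of all probe sets. The 4 genes higher in vitro lie right of 0 in the middle panel and left of 0 in the right panel, with CHR31 on the opposite side; the dashed lines in these panels change sign under the other scalings.

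Pollinated flowers were also set against cultured tubes, a comparison that shares the in vitro arrays with the one above. In vivo, 1 CHR gene was higher and 4 were lower, against 59.3% of all probe sets called, 39.4% higher and 20.0% lower. Again these were CHR31 on one side and CHR17, CHR18, CHR23 and CHR40 on the other. Arrays did not overlap for 5 of the 8 genes and for 63.5% of all probe sets. The median log2 fold was -0.36 over the 8 genes and 0.36 over all probe sets. The sign of the median over all probe sets depended on scaling: with quantile normalization the medians were -1.45 and -0.27, and with equal array medians -1.43 and -0.46. Over all probe sets 8953 were higher and 4542 lower as given, 5970 and 6843 with quantile normalization, and 6034 and 7818 with equal array medians. CHR34 had a fold of 0.29, from -0.70 to 1.27 (limma, adjusted p = 0.609).

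Several CHR genes had their highest or lowest signal on the same replicate. In vivo replicate 3 held the highest in vivo signal of 6 of the 8 genes, all but CHR34 and CHR42, and its pollen tube marker sum was 25943, against 12889 and 14748 on in vivo replicates 1 and 2. In vitro replicate 3 held the lowest in vitro signal of 5 genes, CHR17, CHR18, CHR23, CHR40 and CHR42, and the highest of CHR24 and CHR34. Its pollen tube marker sum was 344358, against 205468 and 234649 on in vitro replicates 1 and 2. In bud, replicate 1 was lowest for 5 genes. The share of all probe sets with the same order was not computed, so these counts have no background to be read against. On average PLIM2a was the largest part of the marker sum, at 12778 ± 4683 in vivo and 142529 ± 83113 in vitro (SD). The part of the marker differences in this order was not tested.

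Related chromatin genes were read from 4 lists, of which the probe annotation covered a small part: 16 genes had a probe set. None of the 16 passed between in vivo and bud, where only 4.02% of all probe sets were called. Between in vitro and bud 4 were higher and 2 lower, with a median log2 fold of -0.08, beside -0.42 over all probe sets, of which 20.4% were called higher and 40.5% lower. These lists depended on scaling: with quantile normalization 8 were higher and 1 lower, and with equal array medians 9 and 1. Of 4 other Snf2-family ATPases, 3 were higher in vitro, with a list median of 2.31. ATRX (CHR20), which in mammals deposits histone H3.3 variants with a partner chaperone, averaged 218 ± 15.8 in vivo, 2565 ± 1342 in vitro and 211 ± 48.1 in bud (SD, n = 3 each). Its log2 fold over bud was 3.36 ± 0.44 (SE, limma, adjusted p = 4.22e-05). RAD5, which acts in replication-coupled DNA repair, averaged 25.2 ± 16.1 in vivo, 251 ± 122 in vitro and 22.3 ± 24.0 in bud, with a fold of 2.84 (limma, adjusted p = 0.000609). ETL1 (CHR19) averaged 724 ± 130.3 in vivo, 2558 ± 560.1 in vitro and 721 ± 44.3 in bud, with a fold of 1.78 (limma, adjusted p = 0.00043). INO80, the ATPase of the INO80 complex, had a fold of 0.08 (limma, adjusted p = 0.856) and signals of 395 ± 90.6 in vivo, 420.1 ± 93.2 in vitro and 395 ± 77.1 in bud. INO80 passed under both other scalings, with a fold of 1.07 (limma, adjusted p = 0.0146) after quantile normalization and 1.25 (limma, adjusted p = 0.0204) with equal array medians. ETL1 had a fold of 2.98 with equal array medians, and RAD5 one of 1.81 with an offset of 64.

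Among 5 measured partners of remodelling complexes none was higher and 2 were lower in vitro than in bud, with a median of -0.75; this count is near the 40.5% of all probe sets called lower. BSH, the SNF5-type core subunit of plant SWI/SNF complexes, averaged 344 ± 41.8 in vivo, 43.2 ± 41.3 in vitro and 490.2 ± 139 in bud; its log2 fold was -3.31 ± 0.49 (SE, limma, adjusted p = 0.00011). CHC1 (AT5G14170), a SWP73-type subunit of these complexes, averaged 537 ± 184 in vivo, 165 ± 57.2 in vitro and 643 ± 189 in bud, with a fold of -1.88 (limma, adjusted p = 0.00185). CHC1 lost this call with quantile normalization, at -0.63 (limma, adjusted p = 0.197), and with equal array medians, at -0.75 (limma, adjusted p = 0.129), while BSH kept its call under both. SWI3A, CHB3 and SWC2 had folds of -0.75, -0.50 and 0.64 and did not pass, but SWC2 passed as higher under both other scalings, with 1.93 and 1.74. The median of the 5 partners changed sign to 0.28 and 0.29 under these scalings.

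Of 3 genes of DNA methylation none passed, with a list median of -1.21; the DNA demethylase DME had a fold of -1.63 (limma, adjusted p = 0.0696), the polymerase subunit NRPD7 of -1.21 and the histone demethylase gene LDL2 of 0.69. Without in vitro replicate 3, DME and NRPD7 passed as lower, with -2.65 (limma, adjusted p = 0.000158) and -2.14 (limma, adjusted p = 0.000246), and DME also passed with the replicate number as a block (limma, adjusted p = 0.0305). LDL2 passed as higher with quantile normalization, at 1.90, and with equal array medians, at 1.76. Of 4 histone factors 1 was higher in vitro, the histone deacetylase HDA15, with 456 ± 118 in vivo, 1029 ± 121 in vitro and 523 ± 10.1 in bud and a fold of 0.95 (limma, adjusted p = 0.0214). Over all probe sets 20.4% were called higher and 40.5% lower in vitro than in bud. The count of 1 higher among 4 is near the first share. HDA15 missed the threshold without bud replicate 2, bud replicate 3 or in vitro replicate 2 (limma, adjusted p = 0.0583, 0.0546 and 0.0563), and its fold was 1.53 with quantile normalization and 2.13 with equal array medians. The histone chaperone genes SGA2 (ASF1A) and ASF1B and the histone deubiquitinase UBP26 had folds of -0.13, -0.03 and -0.21, and the list median was -0.08. SGA2 passed as higher under both other scalings, with 0.94 and 1.04, and ASF1B with equal array medians, with 1.15; the list median was 0.96 with quantile normalization. Between in vivo and in vitro the same 6 genes passed, with the opposite signs: 2 were higher and 4 lower in vivo, where 39.4% of all probe sets were called higher and 20.0% lower. BSH was higher in vivo by 2.85, CHC1 by 1.60, and ATRX fell by 3.29. CHC1 again lost its call under both other scalings, with 0.35 and 0.51, while INO80, SWC2, LDL2, SGA2 and ASF1B passed as lower in vivo. Under offset 64, the filter at a mean signal of 100, the intensity trend or without in vitro replicate 1, ASF1B also passed as lower in vivo. Without in vitro replicate 3, DME and NRPD7 passed as higher in vivo, with 2.19 and 2.15.

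**Figure D4:**
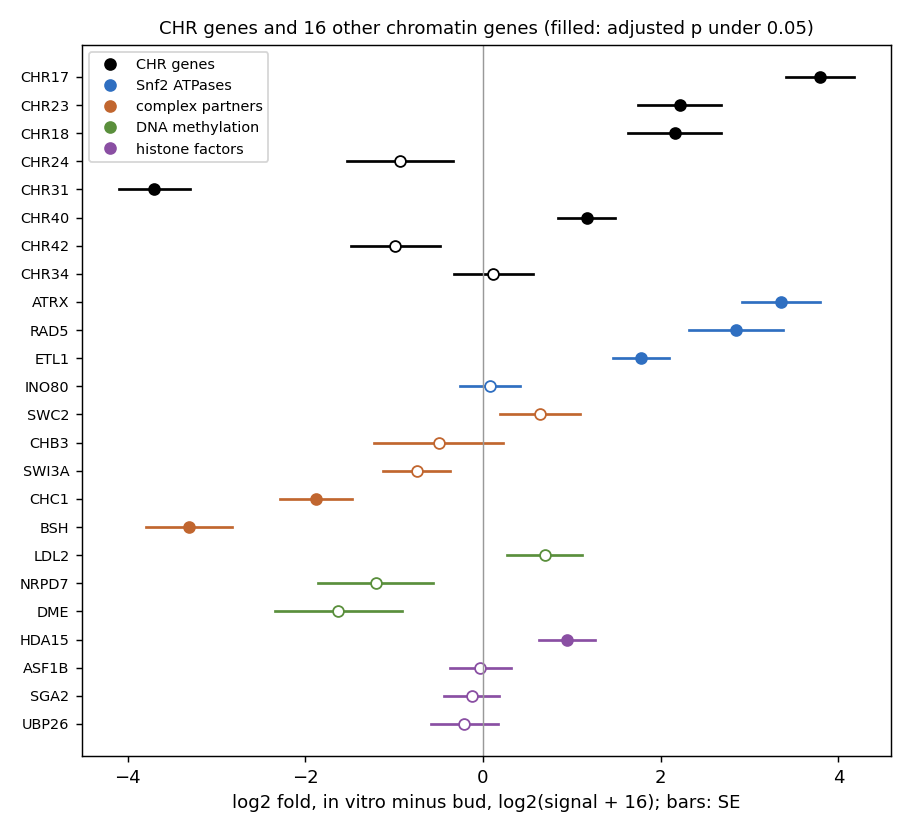
Log2 fold of in vitro against bud (x axis, log2(signal + 16) scale) for the 8 CHR genes and 16 other chromatin genes, coloured by list; bars are the SE and filled points have an adjusted p under 0.05. Of the Snf2-family ATPases outside the CHR genes 3 of 4 lie right of 0 and are filled, and the complex partners BSH and CHC1 lie left of 0, where CHC1 passed with the deposited scaling but not with the other two.

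The named genes whose log2 signals were most like those of each CHR gene over the 9 arrays were found among 6041 probe sets with 1 named gene and a mean above the median. For CHR17 these were AT5G24810 and AT5G60930 (Pearson r of 0.998 and 0.997), for CHR23 AT3G17770 and AT5G08110 (0.996 and 0.990), for CHR18 AT3G09850 and AT2G47350 (0.977 and 0.974), and for CHR40 AT3G59910 and GPT (0.994 and 0.985). All of these were brighter in vitro than in the flower groups; AT5G60930 averaged 131 in vivo, 1634 in vitro and 142 in bud. For CHR31 they were SPPA, a protease gene of the chloroplast, and AT5G60140 (0.996 and 0.990); SPPA averaged 647 in vivo, 98.9 in vitro and 509.9 in bud. For CHR24, CHR34 and CHR42 the leading r was lower, at 0.970 (AT4G38760), 0.920 (AT3G28670) and 0.904 (AT3G48200). For CHR17, CHR18, CHR23, CHR31 and CHR40 the in vitro arrays stood apart from the rest. With 3 groups in 9 arrays such a gap weighs heavily in r. For CHR24, CHR34 and CHR42 the in vitro arrays overlapped with the others.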

How the data were processed

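The pulled-down mRNA was measured on 9 Affymetrix arrays, 3 per group. The authors deposited an intensity for each probe set on every array. MAS5 is named in the submitters' processing notes, with no version in the sources used here. Each array's mean, trimmed by 2% at both ends, was about 500. Detection calls were not used here. The table held 22810 probe sets, from which 64 controls were removed.

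Values were transformed as log2(value + 16), with no filter on dim probe sets. A model with a mean for each group was fitted to the 9 arrays together (limma 3.58.1, R 4.3.3), and its two-sided p-values had Benjamini-Hochberg adjustment over 22746 probe sets. A gene was called at an adjusted p under 0.05. With 3 arrays a group, the smallest p of an exact permutation test is 0.1, so none is given. The number of arrays limits the precision. The fit was tested on simulated data.

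All CHR genes are named. The members and lists were chosen with earlier results of these data known. From each list, up to 3 called genes in each direction and comparison are named; others are named for completeness. A gene with several probe sets is given by the brightest. Alternatives changed the offset, scaling, filter, arrays in the fit, replicate block, variance prior, probe set choice and replicates. No coordinates or sequences are printed.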

Additional observations from a re-analysis of the deposited data

How the results depend on the processing

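Over 18 alternatives, 0 CHR genes were called between in vivo and bud in every one, 5 to 6 between in vitro and bud, and 4 to 6 between in vivo and in vitro. Of all probe sets tested, the same alternatives called 2.38 to 6.64%, 55.1 to 81.7% and 52.8 to 80.8% in these comparisons. CHR17, CHR18, CHR23, CHR31 and CHR40 kept their direction in both comparisons with in vitro under all alternatives. A call was lost only for CHR40, as given in the report. No alternative used the dimmer CHR31 probe set alone, whose folds had the opposite directions. They were 1.24 for in vitro against bud and -0.87 for in vivo against in vitro (limma, adjusted p = 0.0355 and 0.127). CHR24 and CHR34 gained calls as given in the report. Over all probe sets, the count between in vivo and bud was 915 as reported. An offset of 1 gave 579, a fit of those 6 arrays gave 1378, and leaving out 1 array gave 541 to 1292. For in vitro against bud, all probe sets had a median log2 fold of 0.22 with quantile normalization and 0.44 with equal array medians, and for in vivo against in vitro -0.27 and -0.46.

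Of the CHR genes, only those not called in a comparison changed sign in it. For in vivo against in vitro, CHR24 had -0.11 and CHR34 had -0.80 with quantile normalization, and CHR24, CHR34 and CHR42 had -0.15, -0.75 and -0.012 with equal array medians. With 1 array left out, the folds in vivo against bud ran from -0.56 to 0.024 for CHR17, -1.29 to -0.11 for CHR18, -0.48 to 0.039 for CHR23, 0.46 to 1.05 for CHR31, -0.083 to 0.30 for CHR40 and -0.68 to 0.14 for CHR42. For CHR24 they ran from -1.68 to -0.21 for in vitro against bud and from 0.0080 to 1.48 for in vivo against in vitro, and for CHR42 from -1.31 to -0.49 and from 0.35 to 1.04. For CHR34 they ran from -0.26 to 0.67 for in vitro against bud and from -0.26 to 0.66 for in vivo against in vitro. The median of the 8 genes in vivo against in vitro was -0.64 without in vitro replicate 2. The cause was not tested. CHR42 has no value with the filter at a mean signal of 100, since its mean is below it.

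With the replicate number as a block the counts over all probe sets were 784 between in vivo and bud, 13844 between in vitro and bud and 13412 between in vivo and in vitro, and no call of a CHR gene changed; the labels do not say that equal numbers mark shared material. Deviations of same-numbered arrays from their group means correlated at -0.05 to 0.07. Signals near the low end of an array, as for CHR42 and for CHR31 in vitro, limit how well their folds are known.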
